A study of Gallus gallus with 6 samples.

Results

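The genes described here are 36 markers of endothelium and the secreted VEGF ligands VEGFA and VEGFC, 38 in all. They were chosen by name, with earlier results of these data known. Of the 38 symbols, 31 matched a row of the gene table, out of 17108 rows in all. All 31 were among the 10529 rows that the authors tested. The symbols ANGPT2, ROBO4, TAL1, SOX7, SOX17, ARHGEF15 and RASIP1 matched no row by name and were not analysed here as members.

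Endothelial cells line blood vessels, and in the trunk of the embryo they arise in part from the somites and grow as vessels between and around them. VEGFA is a secreted ligand that binds the receptors KDR and FLT1 on endothelial cells, whereas VEGFC acts mainly through FLT4. A sprout is led by a tip cell, which responds to VEGFA with DLL4 and other genes, and ETS family, SOX and GATA factors maintain the endothelial gene program.

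The tissue was sclerotome, the part of the somite that forms the vertebral column, of wild type chick embryos at embryonic day 3, Hamburger and Hamilton stage 18. The groups were anterior half-sclerotomes and posterior half-sclerotomes, cut by hand from the same stretch of somites, the 11th to the 23rd counted from the newest one, with 100 pieces to a pool. There were 3 libraries per group, and no label says that pools came from separate embryos, so the spread behind the p-values may be partly technical. The labels name no sorting of cells, so a piece could hold vessels, blood, neural crest cells and other tissue beside sclerotome, and the authors' values are those of the whole piece.

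All levels below are the authors' FPKM values (fragment numbers relative to the length of the transcript and the size of the library), 1 value per group. No value per library was used, so no SD can stand beside a level, and the depth behind each level is unknown. A gene was called different when the authors' q, their p-value adjusted over all tested rows, was under 0.05. The authors' deposited table gives no p below 5e-05, which corresponds to q = 0.00139, and 8 of the 31 genes lie at that limit. In these bulk pieces, more cells of a type and more RNA per cell cannot be told apart.

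The label of the tissue and the markers of vessels were checked first. The sclerotome factor PAX1, a paired box gene named here after seeing its value, had 367 FPKM on the anterior side and 490 FPKM on the posterior side. The posterior sclerotome factor UNCX had 1.45 and 87.8 FPKM on these sides, and the anterior sclerotome factor TBX18 had 32.5 and 3.10 FPKM. Of 9 tested genes of the sclerotome list, the authors called 6 in posterior and 1 in anterior, beside 3.57% and 3.5% of all tested rows. Among the 6 was PAX1 (authors' deposited table, q = 0.0184). The median log2 ratio of posterior over anterior in that list was 0.65, against 0.0046 over all tested rows and 0.39 over the 31 genes. The factors TCF15 and GGMOXr1 had 39.8 and 104 FPKM and 27.5 and 67.9 FPKM. UNCX and TBX18 thus lay on the sides that the labels give. The vascular cadherin CDH5, at 25.0 and 41.1 FPKM, and the adhesion molecule PECAM1, at 14.3 and 14.0 FPKM, were present in both, so both kinds of piece held endothelial RNA.

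Endothelial genes were mostly higher in posterior half-sclerotomes, but by unequal amounts. Of the 31 genes, 12 were called higher in posterior and 1 was called higher in anterior by the authors' q. Over all tested rows, 3.57% were called higher in posterior and 3.5% in anterior, or 7.07% in either direction. At an unadjusted p under 0.05 the counts were 16 and 1, beside 8.21% and 7.93% of all tested rows. At q under 0.01 the counts were 8 and 1 (background 2.38% and 2.33%), and at q under 0.1 they were again 12 and 1 (background 4.63% and 4.49%). The 12 were VEGFA, TIE1, ACVRL1, CD34, CDH5, ESAM, PLVAP, EMCN, VWF, EGFL7, ESM1 and SOX18, and the 1 was VEGFC. Whether called or not, 26 of the 31 had the higher value in posterior (83.9%), against 50.9% of all tested rows. Their median log2 ratio of posterior over anterior was 0.39, against 0.0046 over all tested rows, and single ratios ran from -1.23 for VEGFC to 2.42 for ESM1. At least 2-fold and called were 4 genes higher in posterior (ESM1, VEGFA, VWF and CD34; background 1.25%) and 1 in anterior (VEGFC; background 1.68%).

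**Figure D1:**
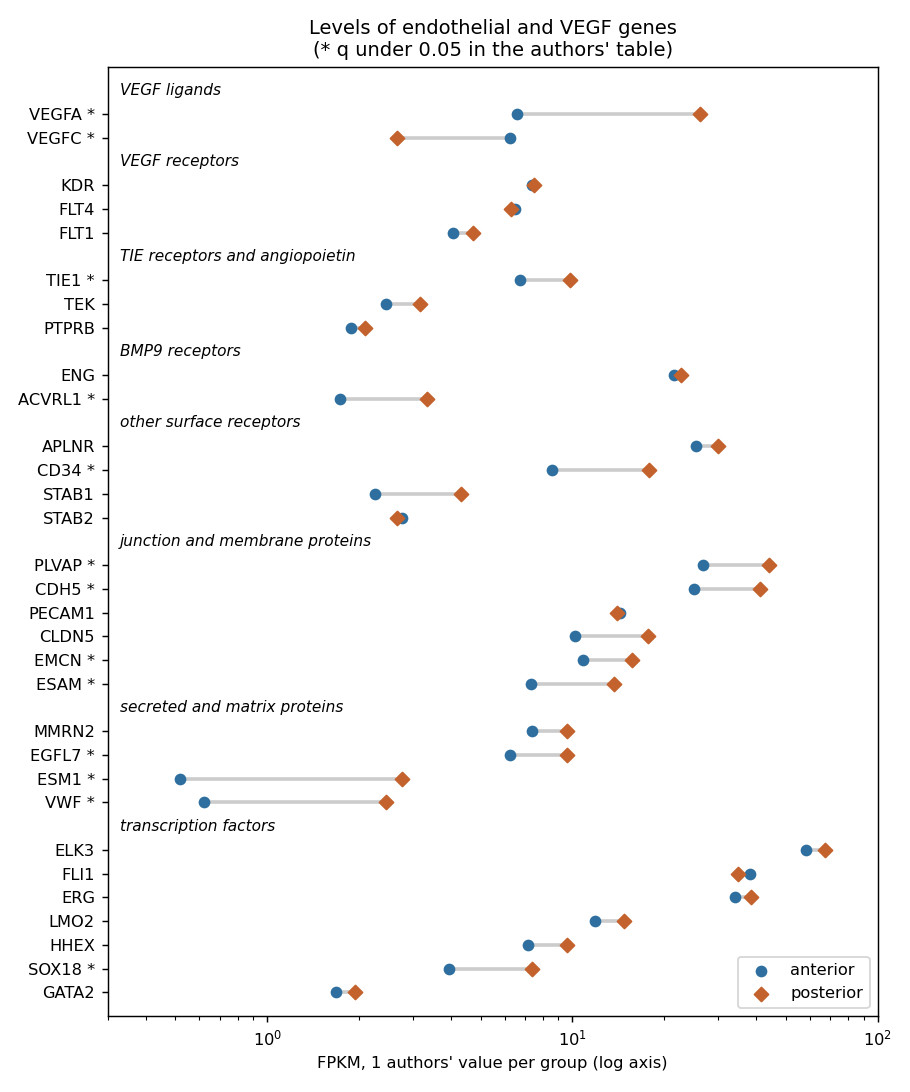
Level of each of the 31 genes in anterior (circles) and posterior (diamonds) half-sclerotomes in FPKM on a log axis, 1 authors' value per group, with no error to show, ordered by role. Stars mark genes with q under 0.05. The widest gaps are those of ESM1, VEGFA and VWF, while KDR, FLT4, PECAM1 and ENG have both symbols at nearly the same place.

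The 2 VEGF ligands differed in opposite directions. VEGFA, the main growth signal for endothelial sprouts, rose from 6.60 FPKM on the anterior side to 26.2 FPKM on the posterior side. That is 3.97-fold higher in posterior (authors' deposited table, q = 0.00139), and it moved VEGFA from rank 18 among the 31 genes in anterior to rank 7 in posterior. Its ratio was above that of 99.2% of all tested rows. VEGFC, a ligand known for lymphatic and venous vessels, had 6.23 FPKM on the anterior side against 2.66 FPKM on the posterior side, or 2.34-fold lower in posterior (authors' deposited table, q = 0.00139). The ligands were thus almost level with each other in anterior pieces and far apart in posterior ones, as FPKM, which is scaled by transcript length. On galGal4, VEGFA lies on chromosome 3 from 30013851 to 30033731 and VEGFC on chromosome 4 from 43882837 to 43954986, each taken over the whole span of the gene.

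None of the 3 VEGF receptors was called (0 at an unadjusted p under 0.05 as well), beside 7.07% of all tested rows called in either direction. KDR, the main signalling receptor for VEGFA, was at 7.37 and 7.46 FPKM on the anterior and posterior sides (authors' deposited table, q = 0.982). FLT1, a VEGFA receptor that also acts as a decoy, was at 4.06 and 4.74 FPKM (q = 0.667), and FLT4, the receptor for VEGFC, at 6.49 and 6.29 FPKM (q = 0.952), by the authors' deposited table. The receptors were thus within 1.17-fold of equal in this comparison, though no interval of that ratio could be had from 1 value per group.

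The other VEGF pathway genes went both ways. Of 9 tested genes of the fixed list that are not among the 31, the authors called 1 in posterior and 3 in anterior. Over all tested rows the shares were 3.57% and 3.5%. The median log2 ratio of the 9 genes was -0.36, and 4 of them had the higher value in posterior (44.4%), against 50.9% of all tested rows. FIGF, which encodes the FLT4 ligand VEGFD, was the most abundant ligand row, with 166 FPKM on the anterior and 116 FPKM on the posterior side (1.44-fold lower in posterior, authors' deposited table, q = 0.00139). PGF, a ligand of FLT1 named after seeing its value, had 3.35 and 1.22 FPKM (authors' deposited table, q = 0.0875). The co-receptors were lower in posterior too: NRP2 was at 208 and 31.4 FPKM (6.63-fold) and NRP1 at 44.8 and 21.0 FPKM (2.14-fold), and the authors' deposited table gives both q = 0.00139. Neural crest cells and axons also carry neuropilins. Of 7 tested crest genes, 6 were called in anterior and 0 in posterior (background 3.5% and 3.57%). Among the called genes was the factor SOX10 with 103 and 4.92 FPKM. The factors TFAP2A and TFAP2B and the cadherin CDH7 had 9.52, 28.9 and 11.3 FPKM on the anterior side and 0.240, 0.886 and 0.326 FPKM on the posterior side. The summed level of the 8 crest genes with a row was 211 FPKM on the anterior and 22.0 FPKM on the posterior side, and the part of crest cells in the neuropilin ratios was not tested. The called posterior gene was SHB, an adaptor of receptor signalling encoded on chromosome Z, with 6.08 and 8.83 FPKM (authors' deposited table, q = 0.0257). The remaining uncalled genes are named after seeing their values. PLXND1 (10.5 and 13.2 FPKM), PLCG1 (54.3 and 66.2 FPKM) and RCAN1 (3.84 and 5.35 FPKM) were higher in posterior. SHC2 (2.96 and 2.31 FPKM) was lower there.

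The TIE receptors mature and steady new vessels. TIE1, the orphan receptor of that pair, was at 6.72 and 9.79 FPKM on the anterior and posterior sides, a 1.46-fold rise (authors' deposited table, q = 0.0332). TEK, the angiopoietin receptor, was at 2.45 and 3.16 FPKM, for which the authors' deposited table gives an unadjusted p of 0.0496 and q = 0.308. PTPRB, a phosphatase that dephosphorylates TEK, was at 1.89 and 2.09 FPKM (authors' deposited table, q = 0.846). All 3 had the higher value in posterior, against 50.9% of all tested rows. TIE1 alone passed the test, beside 3.57% of all tested rows called in posterior. Of the 3 other tested genes of this pathway, 1 was called, in posterior (background 3.57%). It was the matrix gene SVEP1, at 2.28 and 4.28 FPKM (authors' deposited table, q = 0.00139). SVEP1 and TEK lie on chromosome Z.

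Of the 2 receptors for the blood-borne ligand BMP9, 1 was called, in posterior (background 3.57%). ACVRL1, the type I receptor, rose from 1.73 FPKM on the anterior side to 3.33 FPKM on the posterior side (1.93-fold, authors' deposited table, q = 0.0304). The mean of ACVRL1, 2.53 FPKM, was above that of only 8.0% of all tested rows. ENG, the co-receptor endoglin, was more abundant, at 21.5 and 22.6 FPKM (authors' deposited table, q = 0.922). Whether the ratios of ACVRL1 and ENG differ was not tested. Of 8 other tested genes of that pathway, 1 was called, in posterior (background 3.57%). ID2, an inhibitor of helix-loop-helix factors that many tissues express, was at 170 and 226 FPKM (authors' deposited table, q = 0.0211).

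Among other surface proteins, CD34, a sialomucin of vessel and blood stem cells, was at 8.59 and 17.8 FPKM on the anterior and posterior sides (2.07-fold, authors' deposited table, q = 0.00139). APLNR, the apelin receptor, known from veins and early angioblasts, was at 25.5 and 29.9 FPKM (q = 0.674). The scavenger receptors STAB1 and STAB2 were at 2.26 and 4.30 FPKM (q = 0.356) and at 2.76 and 2.66 FPKM (q = 0.946), by the authors' deposited table. STAB1 thus had a 1.90-fold ratio, about that of ACVRL1, without passing the test. STAB1 is one of 4 genes of the 31 whose locus also holds another row, with EGFL7, FLT1 and FLI1.

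Among proteins of cell junctions and membranes, 4 of 6 genes were called, all in posterior, beside 3.57% of all tested rows. CDH5, the cadherin that joins endothelial cells, was 1.65-fold higher in posterior, and PLVAP, which forms the diaphragms of fenestrae, was at 26.7 and 44.2 FPKM, also 1.65-fold (q = 0.00139 for both by the authors' deposited table). ESAM, an adhesion molecule of tight junctions, was at 7.29 and 13.7 FPKM (1.88-fold, q = 0.00679), and EMCN, the sialomucin endomucin, at 10.8 and 15.6 FPKM (1.44-fold, q = 0.0244), by the authors' deposited table. The tight junction gene CLDN5 was at 10.2 and 17.7 FPKM, a larger ratio than that of CDH5, but did not pass the test (authors' deposited table, q = 0.104). PECAM1 was the exception in direction, with the values given above (authors' deposited table, q = 0.968). CDH5 lies on chromosome 11 from 10982217 to 11011468 on galGal4.

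**Figure D2:**
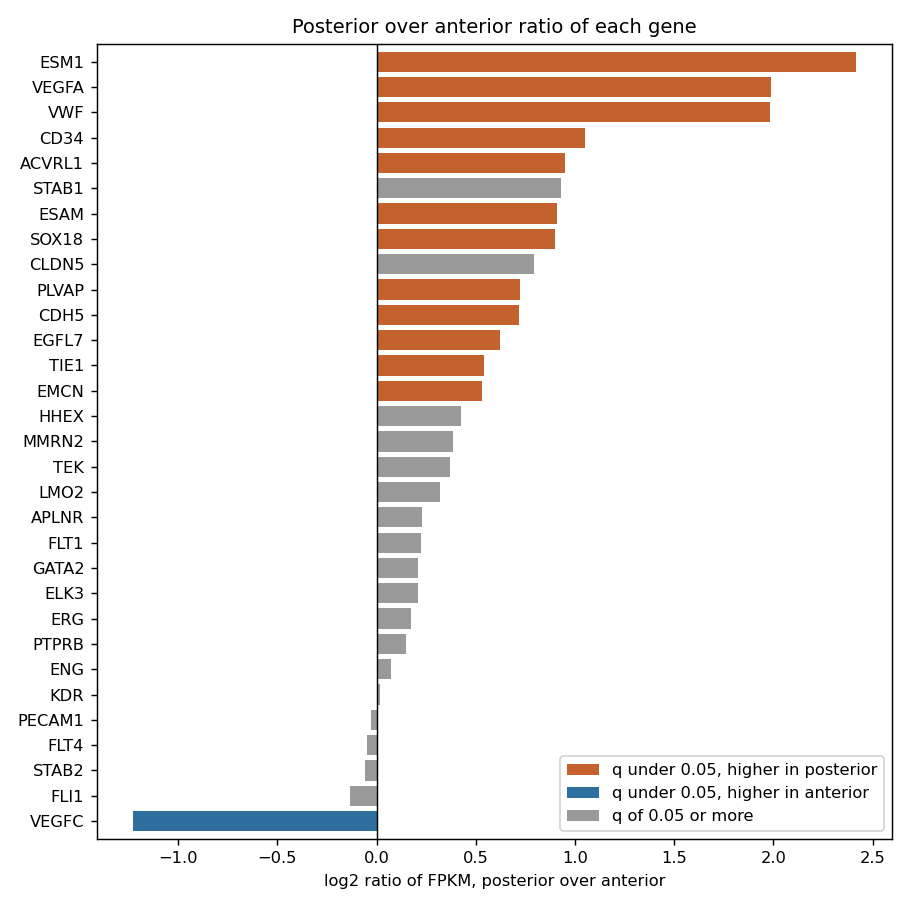
Log2 ratio of FPKM, posterior over anterior, for each of the 31 genes in order of size, coloured by whether q in the authors' table was under 0.05. The top 3 are ESM1 (2.42), VEGFA (1.99) and VWF (1.98). STAB1 and CLDN5 stand among called genes without a call, and VEGFC (-1.23) is the only gene called in anterior.

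Apart from the VEGF ligands, 4 members encode secreted or matrix proteins, and 3 of them were called, all in posterior (background 3.57%). ESM1, or endocan, a secreted proteoglycan of tip cells, rose from 0.518 FPKM on the anterior side to 2.77 FPKM on the posterior side (5.34-fold, authors' deposited table, q = 0.00139). VWF, the clotting factor that endothelial cells store, was at 0.620 and 2.45 FPKM (3.95-fold, authors' deposited table, q = 0.00139). Both were the least abundant of the 31 genes in anterior, and in mean FPKM both lay below the 3rd percentile of all tested rows, so their ratios rest on low levels. EGFL7, a matrix protein of endothelial cells, was at 6.23 and 9.58 FPKM (1.54-fold, q = 0.0462), and MMRN2, a multimerin of the vessel matrix, was at 7.35 and 9.62 FPKM (q = 0.207), by the authors' deposited table. ESM1 lies on chromosome Z from 16485064 to 16493920 and VWF on chromosome 1 from 74338879 to 74476749 on galGal4. Among the 495 tested rows of chromosome Z the median log2 ratio was 0.12, against 0.0046 over all tested rows. The higher value was in posterior in 67.9%, against 50.9% of all tested rows. In posterior 46 (9.29%) were called and in anterior 17 (3.43%), beside 3.57% and 3.5% of all tested rows. The part of the chromosome in the ratios of ESM1, TEK, SVEP1 and SHB, and of CCBE1 given below, was not tested.

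Transcription factors of the endothelial program included the most abundant of the 31 genes, and 6 of 7 did not pass the test. Over all tested rows, 7.07% were called in either direction. ELK3, an ETS factor, had the highest level in both groups, at 58.4 and 67.4 FPKM (q = 0.479), and the ETS factors FLI1 and ERG were at 38.2 and 34.8 FPKM (q = 0.781) and at 34.0 and 38.4 FPKM (q = 0.675), by the authors' deposited table. The exception was SOX18, an HMG box factor of vessel and lymphatic differentiation, at 3.94 and 7.36 FPKM (1.87-fold, authors' deposited table, q = 0.00139). It lies on chromosome 20 from 9728462 to 9733689 on galGal4. LMO2, the adaptor that links GATA and TAL1 factors, was at 11.9 and 14.8 FPKM (p = 0.0377, q = 0.263), the homeobox gene HHEX at 7.13 and 9.59 FPKM (q = 0.455) and the zinc finger gene GATA2 at 1.68 and 1.95 FPKM (q = 0.845), by the authors' deposited table. The median log2 ratio of the 7 factors was 0.21, against 0.72 for the 6 junction and membrane proteins and 1.30 for the 4 secreted proteins. The 4 secreted proteins include ESM1 and VWF, whose ratios rest on low levels. Whether these groups of genes differ in ratio was not tested. ELK3, ERG and FLI1 are also known from mesenchyme and neural crest cells, and crest genes had the anterior levels given above, whose part in these ratios was not tested.

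**Figure D3:**
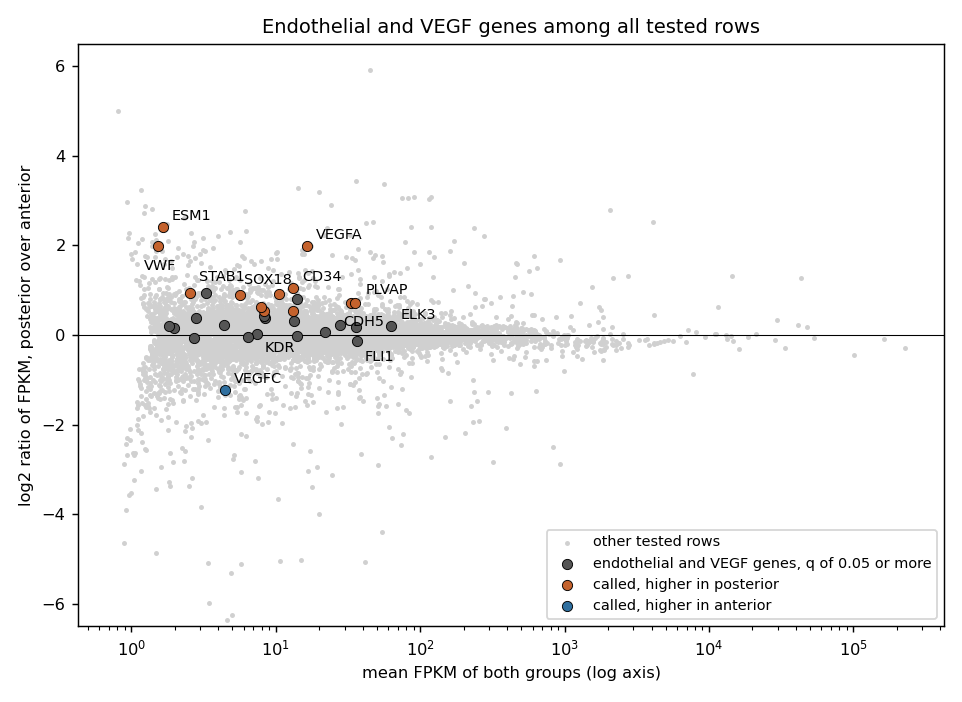
Log2 ratio of posterior over anterior FPKM against mean FPKM of both groups (log axis) for all tested rows with values above 0 in both groups (grey) and for the 31 genes (large points, coloured by call). ESM1 and VWF lie at the left edge among rows of low FPKM, VEGFA stands well above the grey band at a middle level, and ELK3, the most abundant of the 31, lies within it.

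Genes known from arteries and Notch signalling, counted as a separate list, were nearly all higher in posterior. Of 11 tested, the authors called 10 in posterior and 0 in anterior, beside 3.57% and 3.5% of all tested rows. The median log2 ratio was 0.83, against 0.0046 over all tested rows. GJA4 and GJA5, connexins of arterial endothelium, were at 0.645 and 3.96 FPKM (6.14-fold) and at 7.01 and 28.0 FPKM (3.99-fold) in anterior and posterior. DLL4, the Notch ligand of tip cells and arteries, was at 1.07 and 4.24 FPKM (3.98-fold), and EFNB2, an ephrin of arteries that posterior sclerotome is also known to express, at 3.55 and 10.7 FPKM (3.01-fold), and the authors' deposited table gives each of these 4 genes q = 0.00139. The 6 other called genes had log2 ratios from 0.51 for HEY1 to 1.07 for CXCR4. The gene without a call was NOTCH1, named after seeing its value, at 19.6 and 25.2 FPKM (authors' deposited table, q = 0.0660). Most of these genes are expressed outside vessels too, so the list does not measure arterial cells alone. GJA4 and DLL4 were low in anterior, GJA4 near the 0.620 FPKM of VWF, so their ratios rest on low levels.

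Genes known from veins and lymphatic vessels gave few tested rows. Beside NRP2, the orphan receptor gene NR2F2, a venous factor that mesenchyme also expresses, was lower in posterior, at 180.2 and 105 FPKM, while CCBE1, which helps to activate VEGFC and is a gene of chromosome Z, rose from 1.12 to 3.79 FPKM (q = 0.00139 for both by the authors' deposited table). Of these 3 tested genes of the list that are not members, 1 was called in posterior and 2 in anterior. Over all tested rows the shares were 3.57% and 3.5%. The list also holds the members APLNR and FLT4, both tested and neither called, beside 7.07% of all tested rows called in either direction. APLNR was at 25.5 and 29.9 FPKM on the anterior and posterior sides (authors' deposited table, q = 0.674). FLT4, the receptor for VEGFC, was at 6.49 and 6.29 FPKM (authors' deposited table, q = 0.952). PROX1, the factor that sets lymphatic identity, was at 0.169 and 0.271 FPKM, and the lymphatic receptor gene LYVE1 at 0.322 and 0.206 FPKM. PDPN, a gene of the same list named after seeing its value, was lower in posterior, at 0.740 and 0.0993 FPKM. None of these 3 genes was tested by the authors.

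The list of other endothelial genes held more posterior than anterior calls. Of 30 tested, 6 were called in posterior and 2 in anterior, beside 3.57% and 3.5% of all tested rows. The median log2 ratio was 0.40, against 0.0046 over all tested rows. ADGRL4, an adhesion receptor of vessels, was at 1.09 and 2.56 FPKM (q = 0.00139), the adaptor gene SHE at 5.93 and 11.6 FPKM (q = 0.0309) and CALCRL, the receptor for adrenomedullin, at 7.97 and 12.8 FPKM (q = 0.0411), by the authors' deposited table. The 2 anterior calls were UNC45B, at 1.67 and 0.536 FPKM (q = 0.00139), and TSPAN18, a tetraspanin gene named after seeing its value, at 32.7 and 20.4 FPKM (q = 0.0146), by the authors' deposited table. UNC45B is known as a myosin chaperone of muscle, and its place in an endothelial list is doubtful. Myotome and dermomyotome genes were called in anterior in 4 of 6 tested and in posterior in 0 (background 3.5% and 3.57%). Of the 4, the muscle precursor factor PAX3 had 10.2 and 1.22 FPKM. The other 3 were CHRNA1 (9.63 and 2.89 FPKM), Pax-7 (2.15 and 0.844 FPKM) and MYF5 (3.04 FPKM on the anterior side and 2.03-fold lower on the posterior side).

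**Figure D4:**
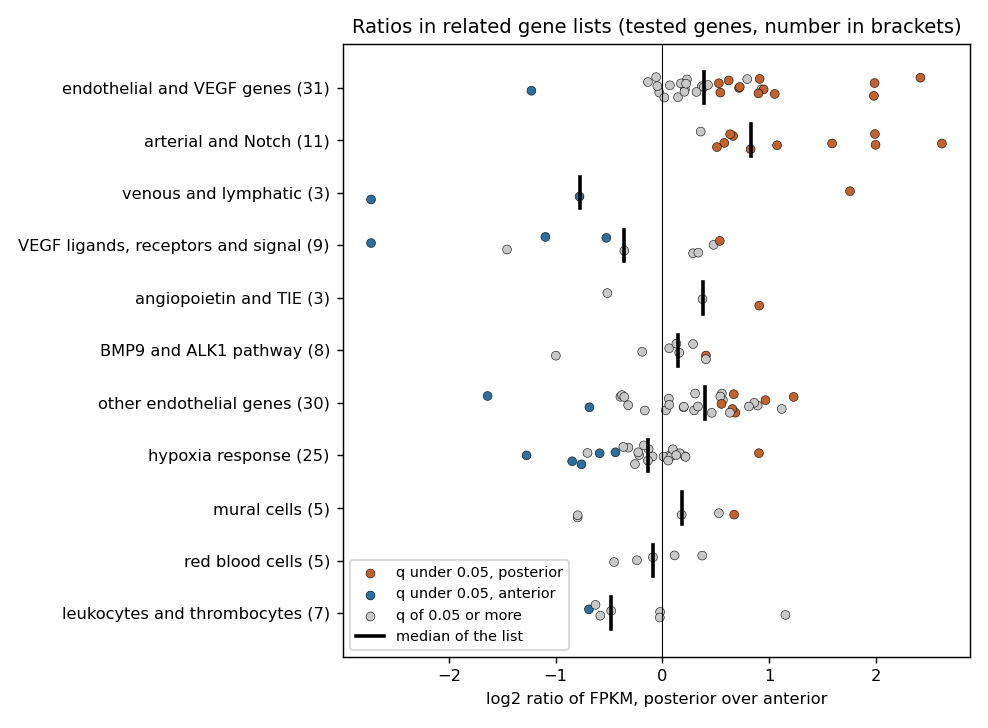
Log2 ratio of posterior over anterior FPKM for each tested gene (points) of the 31 and of 10 related lists, from which the 31 are left out, with the number tested in brackets and the median as a black bar. Arterial and Notch genes lie wholly to the right of 0, with a median of 0.83, while red blood cell genes lie on both sides of 0 with no call. NRP2 is a member of the venous and of the VEGF list and appears in both.

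Hypoxia is a known inducer of VEGFA, so genes of the hypoxia response were counted beside it. Of 25 tested, the authors called 1 in posterior and 5 in anterior, beside 3.57% and 3.5% of all tested rows, with a median log2 ratio of -0.14. The other 19 were not called. Of the 25, 10 had the higher value in posterior (40%), against 50.9% of all tested rows. EPAS1, the hypoxia factor known from endothelium, was the posterior one, at 5.48 and 10.3 FPKM (1.87-fold, authors' deposited table, q = 0.00139). HIF1A, the general hypoxia factor, named after seeing its value, was at 48.0 and 35.4 FPKM (q = 0.00955), and its known targets LDHA, of lactate production, and NDRG1 were at 54.9 and 30.6 FPKM (q = 0.00139) and at 5.17 and 3.05 FPKM (q = 0.0204), by the authors' deposited table. STC2 and P4HA2, the latter named after seeing its value, were the other anterior calls, at 4.09 and 1.69 FPKM and at 16.9 and 11.3 FPKM. The part of hypoxia in the VEGFA ratio was not tested.

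Cells that travel with vessels were measured last. Of 5 tested genes of red blood cells, 0 were called (0 at an unadjusted p under 0.05), and the globin genes HBG1 and HBE were at 512 and 434 FPKM (q = 0.401) and at 209 and 197 FPKM (q = 0.874), by the authors' deposited table. The summed level of that list was 742 FPKM on the anterior and 653 FPKM on the posterior side. Among mural cell genes, 1 of 5 tested was called, in posterior (background 3.57%). It was PDGFRB, a receptor that mesenchyme also carries, at 9.69 and 15.4 FPKM (authors' deposited table, q = 0.00139). Another 4 mural genes were not tested by the authors. Of these, the pericyte gene RGS5 had 0.0393 FPKM on the anterior side, with 0 listed for the other. CSPG4, MYH11 and KCNJ8, named after seeing their values, were at 0.747 and 0.669 FPKM, at 0.989 and 0.881 FPKM and at 1.06 and 1.16 FPKM. Of the other tested mural genes, TAGLN and DES, named after seeing their values, were lower in posterior without passing the test, at 9.76 and 5.63 FPKM (q = 0.0690) and at 36.9 and 21.3 FPKM (q = 0.110), by the authors' deposited table. ABCC9 and ANPEP, also named after seeing their values, were higher in posterior without passing the test. They were at 1.33 and 1.92 FPKM (q = 0.169) and at 18.8 and 21.3 FPKM (q = 0.924), by the authors' deposited table. Of the 5 tested mural genes, 3 had the higher value in posterior (60%), against 50.9% of all tested rows. DES is also in the myotome list, and the loci of DES and ANPEP hold other rows too. Of 7 tested leukocyte and thrombocyte genes, 1 was called, in anterior (background 3.5%). It was the integrin gene ITGB3, at 25.6 and 15.9 FPKM (authors' deposited table, q = 0.00139). ITGB3 was the most abundant row of that list, and whether its RNA came from these cells was not tested. The pan-leukocyte gene PTPRC was at 0.567 and 0.516 FPKM and was not tested. The thrombocyte gene GP9, named after seeing its value, had the higher value in posterior, at 0.822 and 1.83 FPKM (authors' deposited table, q = 0.582). GP9 was the only tested gene of that list with the higher value in posterior, while 6 had it in anterior. The median log2 ratio of the 7 was -0.48, against 0.0046 over all tested rows. With 3.57% of all tested rows called in posterior, lists of this size would hold few calls in any case, so the 0 posterior calls of the red blood cell and leukocyte lists are near the background.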

How the data were processed

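Poly(A) RNA of about 200 ng total RNA per pool was made into stranded libraries and read as single ends of 50 bases, per the labels' protocols. Cuffdiff, Cufflinks 2.2.1, TopHat2 2.1.0, FastQC and the build galGal4 are listed without roles by the submitters' processing notes. The annotation, the options and the library scaling were not given in the sources used here. Per the file headers, the deposited table holds the authors' FPKM, 1 value per group, and the authors' p-value and q-value of posterior against anterior. FPKM depends on transcript length, on each library's total and on how reads of overlapping genes were divided.

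From these, the log2 ratio of posterior over anterior FPKM was computed with no pseudocount (Python 3.11.15, pandas 2.3.3). The q-values equalled Benjamini-Hochberg adjustment over the 10529 tested rows to within 5.27e-07, and calls equalled the authors' own mark of significance. The adjustment and calling were tested on simulated data. Starts are 1 above the table's, whose lowest is 0. The 6579 rows not tested by the authors were never called. Members were matched by symbol, ignoring case. Another 13 lists held 200 symbols, of which 157 genes had a row and 126 a tested one, with 10 found through RefSeq synonyms of assembly GRCg7b. All members found are named, and up to 4 called genes of each list with the largest ratio, or, with no call, the 2 most abundant. Genes of the lists outside this rule were named after seeing their values. The text says so of each except HEY1, CXCR4, PROX1, LYVE1, RGS5, PTPRC, ANGPT4 and ANG-1. Members and lists were chosen with earlier results of these data known, so no p over a list is given. No sequence is printed. Alternatives were other q thresholds, adjustment over only the rows with a symbol, pseudocounts of 0.1 and 1, centring and a filter at 1 FPKM. Shared loci, chromosome Z or the ligands were also left out in turn.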

Additional observations from a re-analysis of the deposited data

How the results depend on the processing

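The count of 12 genes called higher in posterior was 8 at q under 0.01, where ACVRL1, EGFL7, EMCN and TIE1 were lost and the background was 2.38%. It was 12 at q under 0.1 (background 4.63%) and 11 without shared loci, without chromosome Z or without VEGFA and VEGFC. With the filter at 1 FPKM, and with adjustment over only the rows with a symbol, the count was 12. The anterior call of VEGFC was kept in each alternative that held it. The count of genes at least 2-fold apart and called, 5, became 3 on the log2(FPKM + 1) scale, where CD34 and VEGFC had values of 0.97 and -0.98. It was 4 without chromosome Z and 5 under the other alternatives run for it, which did not include leaving out the ligands. Without VEGFA and VEGFC, 3 genes of that kind are left. The median log2 ratio of 0.39 ranged down to 0.35, with log2(FPKM + 1), and centring moved every ratio by 0.0046. No sign of a single gene's ratio changed under either pseudocount or centring.

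No paired analysis was possible because the table gives 1 value per group, and for the same reason leaving out a library was not run. Agreement between libraries is thus not shown. Low FPKM limits ESM1 and VWF, and also genes such as ACVRL1, GJA4, DLL4, CCBE1 and ADGRL4. Unknown depth leaves ratios near 1 without an interval.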

Other observations

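2 of the unmatched symbols have a row under an older name that RefSeq lists as a synonym. The row named SCL, a synonym of TAL1, which encodes a helix-loop-helix factor of blood and vessel precursors, had 3.60 FPKM on the anterior side and 5.49 FPKM on the posterior side (authors' deposited table, q = 0.443). The row named angiopoietin-2, a synonym of ANGPT2, which encodes a TEK ligand of sprouting vessels, was at 1.21 and 1.75 FPKM (authors' deposited table, q = 0.700). Both had the higher value in posterior and neither passed the test. Of the other angiopoietins, ANGPT4 was at 12.3 and 15.9 FPKM (authors' deposited table, q = 0.145) and ANG-1, the row of ANGPT1, at 2.77 and 1.94 FPKM (authors' deposited table, q = 0.125).

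EGFL7 shares its locus with the row of gga-mir-126, a microRNA known from endothelium, which is listed at 0 in both groups and was not tested. STAB1 shares its locus with NT5DC2, a more abundant row at 81.5 and 86.6 FPKM. The counting options that divide reads between STAB1 and NT5DC2 are not known here.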
